A study of Mus musculus with 18 samples.

Results

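The genes of the cytosolic ribosomal proteins were followed in 2 comparisons of mouse Cgas-/- and dKO cells. Members were the genes listed in both of the authors' deposited tables whose symbol starts with Rpl or Rps followed by a digit, p or a. Symbols with -ps, the Rps6k kinases, and Rpl29, which lies close to the targeted gene Trex1, were left out by the rule. This gave 88 genes of the 13776 that both tables list, with 52 Rpl symbols of the large subunit and 36 Rps symbols of the small subunit. Rps6 matched the rule in the bone marrow table alone, with a mean normalized count of 9504, and Rpl39l in the spleen table alone, with 2.54 in the authors' deposited table. GENCODE annotates 82 of the members as protein coding and 4 (Rpl32l, Rpl6l, Rps3a2 and Rps3a3) as processed pseudogenes, and Rpl37rt and Rps4l as transcribed pseudogenes. Rps19bp1 is a binding protein of a ribosomal protein, not a subunit, and entered by its symbol. The members lie on 19 chromosomes, 7 of them on chromosome 9, which also holds Trex1 and Cgas.

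All mice were C57BL/6, and their age was not given. Cgas-/- mice lack the DNA sensor cGAS. The dKO mice are Trex1-/-;Sting1gt/gt: they lack the exonuclease TREX1 and carry the goldenticket allele, which leaves no functional STING. For bone marrow there were 4 libraries of each genotype. For spleen, every animal was a lethally irradiated dKO recipient sampled 12 weeks after transplantation, and 5 libraries followed Cgas-/- marrow and 5 followed dKO marrow. Both spleen groups therefore share dKO hosts, and the host cells that outlast irradiation are dKO in both. The labels do not say that each library came from a different mouse, and the p-values then reflect only how these samples vary, which can be technical variation. All log2 fold changes are Cgas-/- over dKO, or Cgas-/- marrow over dKO marrow, and errors are standard errors.

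The ribosome is built of a small subunit, which decodes the messenger RNA, and a large subunit, which joins amino acids. Most of its proteins are needed in about equal numbers of copies. Their messenger RNAs are among the most abundant of a cell, and many begin with a pyrimidine tract, the 5' TOP motif, through which mTORC1 and the binding protein LARP1 set their translation. Mammalian genomes also hold many pseudogenes made by copying ribosomal protein messenger RNAs back into DNA.

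Sequences around the annotated start are shown for 5 members, because the start tract is the feature that these genes are known to share. The windows were taken from the RefSeq promoter table (GRCm38.p6). Each runs from 10 bases before the start to 20 bases from it on, and capitals mark the match to the motif described below that lies nearest to the start. The match is the part of the run of C and T from there on: in Rpl35, Rps10, Rpl35a and Rps27 the run also extends before the annotated start, in lower case. Rpl35, with the lowest level of all members in spleen, has its window at chr2:39005112-39005141 on the minus strand.
Rpl35: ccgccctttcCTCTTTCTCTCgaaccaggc
Rps10, of the small subunit, has its window at chr17:27635225-27635254 on the minus strand.
Rps10: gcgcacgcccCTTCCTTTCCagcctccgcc
Rpl35a, of the large subunit, has its window at chr16:33056472-33056501 on the plus strand.
Rpl35a: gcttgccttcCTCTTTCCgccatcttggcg
Rps27 (chr3:90213629-90213658, minus strand) and Rps27rt (chr9:114982720-114982749, minus strand) are identical over all 252 coding bases and differ in the bases before the start.
Rps27: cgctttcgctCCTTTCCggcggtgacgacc
Rps27rt: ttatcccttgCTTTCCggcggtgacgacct

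RefSeq promoters were found for 65 of the members, 77 promoters in all. The motif searched, on the gene's strand, was C followed by at least 4 bases that are each C or T, beginning at most 5 bases before or after the start. A match may lie inside a longer run of C and T. It was present in 32 of those 77 promoters (41.6%) and in 18.3% of all 32851 mouse promoters of the table. A match beginning exactly at the annotated start was present in 14 (18.2%), against 2.51% of all promoters. The motif was in 20 of 47 promoters of the large subunit and 12 of 30 of the small. A match is a description of these letters in the annotated window, and the annotated start may differ from the one used in these cells.

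The libraries were QuantSeq forward libraries, which give tags from the 3' end of a transcript, so the sequence near that end decides which gene a tag can be assigned to. A close copy was taken as another gene with at least 99% identity over at least 100 bases of the last 250 bases of an annotated coding transcript of the member. Of the 88 members, 56 had a close copy and 32 had none. The search ran from the end of each member only. Rpl37, Rpl6 and Rps3a1 therefore count among the 32, though each was found as the close copy of another member (Rpl37rt, Rpl6l and Rps3a2, in that order). There were 168 such copies, 151 of them pseudogenes, and a few were members themselves. Coding stretches of 90 bases are shown for a pair that is identical and a pair that differs, since levels of members and copies are set side by side below. Rps29 (GRCm38, chr12:69157722-69159186, minus strand) and the processed pseudogene Gm14303 (chr2:172509521-172509691, minus strand) were identical over all 168 coding bases.
Rps29: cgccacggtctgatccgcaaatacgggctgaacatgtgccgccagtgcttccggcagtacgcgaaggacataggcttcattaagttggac
Gm14303: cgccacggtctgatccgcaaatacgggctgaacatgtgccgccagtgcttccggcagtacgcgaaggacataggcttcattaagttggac
Rpl27 (chr11:101442298-101445529, plus strand) and the processed pseudogene Gm6341 (chr7:101154645-101155055, minus strand) differed at 6 of 408 coding bases, and the 2 mismatches in the stretch shown are in capitals.
Rpl27: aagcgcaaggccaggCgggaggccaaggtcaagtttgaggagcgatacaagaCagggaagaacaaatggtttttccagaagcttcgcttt
Gm6341: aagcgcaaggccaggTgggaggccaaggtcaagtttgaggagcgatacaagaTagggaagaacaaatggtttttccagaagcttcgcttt
A tag that falls within an identical stretch carries nothing that tells the genes apart, and the counting of such tags is not given in the sources used here.

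Results of DESeq2 came as 1 table per tissue, of 14423 genes (bone marrow) and 21830 genes (spleen), and how deep each library was sequenced is unknown. In the authors' deposited tables, Trex1 was higher in the Cgas-/- groups, by 1.45 ± 0.178 on the log2 scale in bone marrow and 2.71 ± 0.199 in spleen. Cgas was lower, at -1.13 ± 0.155 in bone marrow and -0.92 ± 0.217 in spleen, per the authors' deposited tables. These directions are those the labels give. The spleen table lists Cgas under its older symbol Mb21d1, so the tables carry different sets of gene symbols, and whether they used the same annotation is not given in the sources used here. Levels and listed copies are set side by side across the tables with that limit. All 18 neutrophil markers were listed in the authors' deposited bone marrow table, with means from 653 to 406050. All 14 B cell markers and all 20 T cell markers were listed in the authors' deposited spleen table, with means of at least 186 and 183. Each of these lists was also complete in the other tissue, so being listed does not tell the tissues apart. Neutrophil markers ran from 10.9 to 12522 in spleen. In bone marrow the lowest means were 134 for B cell and 17.6 for T cell markers, per the authors' deposited tables.

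In bone marrow no ribosomal protein gene was called different between Cgas-/- and dKO libraries. None of the 88 had a DESeq2 adjusted p under 0.05 in the authors' deposited table, where 0.534% of the 14423 genes did. At an unadjusted p under 0.05, 6 members were higher (6.82%) and 1 was lower (1.14%), against 4.19% and 4.65% of all genes. The median log2 fold change of the members was 0.02 in the authors' deposited table, with 52 of 88 above 0 (59.1%). The median of all genes was -0.00, with 49.5% above 0. The middle portion of the members, from the lower to the upper quartile, lay between -0.03 and 0.10 in the authors' deposited table. In these bulk samples, fewer cells of a type and less RNA per cell cannot be told apart.

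These genes were measured closely in bone marrow. The median standard error of the 88 members was 0.084, against 0.166 for all genes with a mean of at least 20 in the authors' deposited table. At that error a log2 fold change of 0.31 (1.24-fold) would have reached the level of the called genes. The 95% interval of the log2 fold change lay within 0.5 of 0 for 81 of 88 members. For the 80 members with a mean of at least 1000, the outermost bounds were -0.50 and 0.36.

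**Figure D1:**
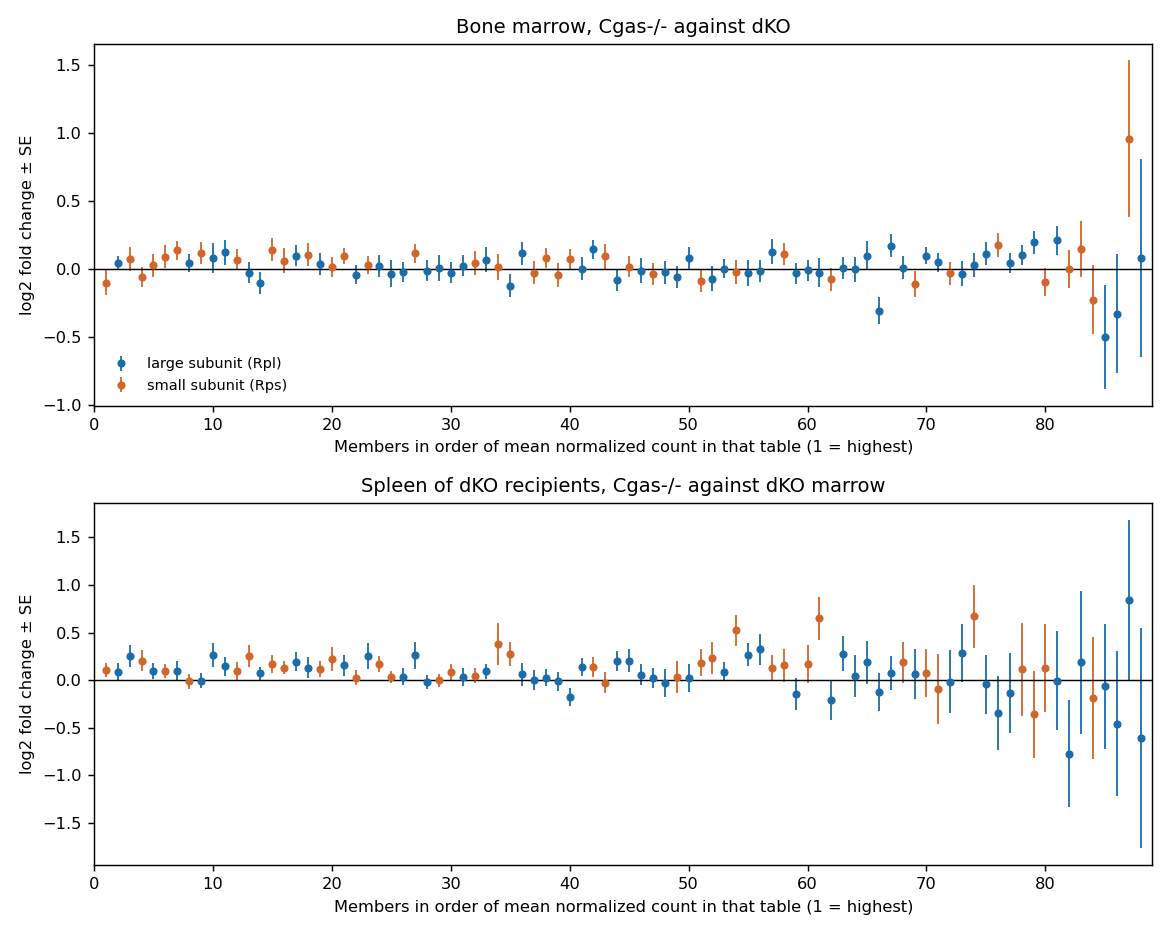
Log2 fold change with its standard error for each of the 88 members, in bone marrow (top) and spleen (bottom), ordered from the highest to the lowest mean normalized count in that table; blue is the large and orange the small subunit. In bone marrow 52 of 88 points lie above 0 and in spleen 64, and the errors widen to the right, where spleen has 17 members with a mean under 20 and bone marrow 2.

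The large subunit gave the smallest p in bone marrow. Rpl10, a protein that joins the large subunit late in its assembly, had a mean of 4267 and a log2 fold change of -0.31 ± 0.0996 (adjusted p = 0.164 by DESeq2) in the authors' deposited table. It has 7 close copies. One of them, Rpl10-ps3 (GRCm38, chr9:50344201-50344968, minus strand), is annotated as protein coding and identical to Rpl10 over all 642 coding bases. Its mean was 8116 and its log2 fold change 0.12 ± 0.0592 in the authors' deposited bone marrow table, so the copy was counted at a higher level than Rpl10 and its fold change had the other sign. Rpl10-ps3 was chosen after its values were seen. Rpl8, at a mean of 6969, had 0.15 ± 0.0700 (adjusted p = 0.511 by DESeq2) in the authors' deposited table. Rpl23a, which binds the tunnel exit of the ribosome and had the highest mean of the large subunit in bone marrow (15776), was at 0.05 ± 0.0519 in the authors' deposited table. The lowest log2 fold change, -0.50 ± 0.382, belonged to the pseudogene Rpl6l, at a mean of 33.6 in the authors' deposited table.

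In the small subunit, Rps29 had the highest mean of all members in bone marrow, 23998, with a log2 fold change of -0.10 ± 0.0890 in the authors' deposited table. Rps20 was at 0.14 ± 0.0702 (adjusted p = 0.554 by DESeq2) with a mean of 14015, and Rps24 at 0.14 ± 0.0869 with 10662 in the authors' deposited table. Neither reached the threshold after adjustment. The pseudogene Rps3a3 had 0.96 ± 0.577 at a mean of 14.9, the lowest mean of the small subunit, in the authors' deposited table.

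In spleen no ribosomal protein gene was called either, and 64 of 88 lay above 0 (72.7%), where 52 did in bone marrow. Of all genes, 45.0% lay above 0 in spleen and 49.5% in bone marrow. None of the 88 had a DESeq2 adjusted p under 0.05 in the authors' deposited table, where 0.133% of the 21830 genes did. At an unadjusted p under 0.05, 10 members were higher (11.4%) and 0 were lower, against 1.17% and 1.85% of all genes. Of the 71 members with a mean of at least 20, 9 were higher (12.7%) and 0 were lower, against 2.02% and 1.58% of all genes with such a mean. The median log2 fold change was 0.09 in the authors' deposited table, beside -0.03 for all genes and 0.01 for all genes with a mean of at least 20. Among the 71 members with a mean of at least 20, 58 lay above 0 (81.7%), against 52.0% of all genes with such a mean. These members share their libraries, so the count is a description of 1 set of samples and not of 88 separate tests. At the members' median error a log2 fold change of 0.51 (1.43-fold) would have reached the level of the called genes, and the 95% interval lay within 0.5 of 0 for 52 of 88.

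The smallest p in spleen belonged to the small subunit. Rps12 had a mean of 159 and a log2 fold change of 0.52 ± 0.161 (adjusted p = 0.556 by DESeq2) in the authors' deposited table. Rps27, at a mean of 77.1, had the highest log2 fold change among members with a mean of at least 20, 0.65 ± 0.223 (adjusted p = 0.999997 by DESeq2) in the authors' deposited table. Both are at means of 15063 and 7276 in the authors' deposited bone marrow table, and both have close copies. Rps15a, at a mean of 4106, had 0.25 ± 0.117 (adjusted p = 0.999997 by DESeq2) in the authors' deposited table. Rpsa, which also serves as the laminin receptor at the cell surface, had 0.27 ± 0.130 in spleen and 0.10 ± 0.0917 in bone marrow, at means of 597 and 6911 in the authors' deposited tables. Rps14, chosen after its values were seen, had 0.13 ± 0.0644 at a mean of 3526 in the authors' deposited table.

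In the large subunit, Rpl18 was at 0.33 ± 0.162 with a mean of 145, Rpl35a at 0.27 ± 0.120 with 148 and Rpl32 at 0.26 ± 0.126 with 7094 in the authors' deposited spleen table. Each of these had an unadjusted p under 0.05 but an adjusted p of 0.999997 by DESeq2, per the authors' deposited table. Rpl4 had the highest mean of the large subunit in spleen, 13634, with 0.09 ± 0.0934, and Rps3 the highest of the small, 13920, with 0.10 ± 0.0727 in the authors' deposited table. Rpl10 had the lowest log2 fold change of the large subunit among members with a mean of at least 20, -0.21 ± 0.203 in the authors' deposited table. Rpl10 was thus below 0 in both tissues, at intervals that include 0 in spleen and do not in bone marrow before adjustment. Its copy Rpl10-ps3 had a mean of 263 in the authors' deposited spleen table, where Rpl10 had 66.2. The log2 fold change of the copy there was 0.35 ± 0.273, and the copy lay above 0 in both tissues. The copy is identical to the end of Rpl10 over the 250 bases compared, so tags from this stretch cannot be told apart. The sign shared between tissues therefore describes only the tags counted for Rpl10. The pseudogenes Rpl32l (mean 2.54) and Rps3a2 (mean 4.10) had log2 fold changes of 0.85 ± 0.840 and -0.19 ± 0.643 in the authors' deposited spleen table.

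The ribosomal stalk, made of Rplp0 and the acidic proteins Rplp1 and Rplp2, recruits the translation factors. In bone marrow its 3 genes had means of 8109, 12128 and 11597 and log2 fold changes of 0.01 ± 0.0965, 0.08 ± 0.114 and 0.12 ± 0.0900 in the authors' deposited table. In spleen the means were 4084, 12789 and 587 and the log2 fold changes 0.08 ± 0.0680, 0.25 ± 0.117 and -0.00 ± 0.106 in the authors' deposited table. Rplp2 was the lowest of the 3 in spleen and has a close copy in the annotated gene Wdr89, which was chosen after its values were seen and had a mean of 4723 there in the authors' deposited table.

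Of the 9 members in the list of paralogs with the binding protein, 4 were higher at an unadjusted p under 0.05 in bone marrow (44.4%, against 4.19% of all genes), and 0 were lower. In the authors' deposited table Rpl22l1 was at 0.20 ± 0.0855, Rpl7l1 at 0.21 ± 0.105, Rpl37rt at 0.17 ± 0.0821 and Rps27rt at 0.18 ± 0.0885, with DESeq2 adjusted p from 0.421 to 0.543. Of these, Rpl37rt is annotated as a transcribed pseudogene. Its 3' end is identical to Rpl37 over the 250 bases compared, and that of Rps27rt is identical to Rps27 over 221 bases, so tags from these stretches cannot be told apart within either pair. In the authors' deposited bone marrow table, Rpl22 was at -0.01 ± 0.0761, Rpl7 at 0.03 ± 0.0789, Rpl37 at -0.10 ± 0.0829 and Rps27 at -0.04 ± 0.0874. The difference between paralog and parent was not tested, since they share libraries. In spleen, Rpl22l1, Rpl7l1 and Rpl37rt were at 0.06 ± 0.119, 0.03 ± 0.105 and 0.03 ± 0.0969, and Rps27rt at 0.38 ± 0.225 in the authors' deposited table. The paralogs Rpl36al, Rps27l, Rpl3l and Rps4l and the binding protein Rps19bp1 lay between -0.33 and 0.03 in bone marrow and between -0.09 and 0.20 in spleen, per the authors' deposited tables. Rpl3l, the striated muscle paralog of Rpl3, had means of 22.7 and 4.36 in the authors' deposited tables, where Rpl3 had 3203 and 55.6.

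The large and small subunits were then set side by side, with no test, since the members share their libraries and are not replicates. In bone marrow the median log2 fold change was 0.01 for the large subunit, with 29 of 52 above 0, and 0.04 for the small, with 23 of 36 above 0 of the authors' deposited table. With p under 0.05 before adjustment, 4 large subunit genes were higher (7.69%) and 1 lower (1.92%), and 2 small subunit genes were higher (5.56%) and 0 lower, where 4.19% of all genes were higher and 4.65% lower. In spleen the medians were 0.06, with 34 of 52 above 0, and 0.13, with 30 of 36 above 0, and 4 (7.69%) and 6 genes (16.7%) were higher at an unadjusted p under 0.05 in the authors' deposited table, where 1.17% of all genes were. The median of the small subunit exceeded that of the large by 0.03 in bone marrow and 0.07 in spleen. Without the members that have a close copy, the difference was 0.06 in bone marrow and -0.03 in spleen, so its sign in spleen depended on which members were kept.

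The difference between the tissues was tested for each gene as the log2 fold change in spleen minus that in bone marrow, over the error of this difference, with Benjamini-Hochberg adjustment over the 13776 shared genes. No member passed, where 0.0581% of all genes did. Rps27 had the largest difference relative to its error, 0.69 ± 0.240 (adjusted p = 0.640 from the authors' DESeq2 estimates). At an unadjusted p under 0.05, 3 members were higher in spleen, against 2.21% of all genes, and 0 were lower, against 2.59%. All 3 were of the small subunit. Rps27 and Rps12 were among them, and the difference for Rps12 was 0.43 ± 0.182. Both have close copies. Their means were 77.1 and 159 in spleen, beside 7276 and 15063 in bone marrow, in the authors' deposited tables. Over the members the median difference was 0.07, with 63 of 88 above 0 (71.6%), and over all genes -0.01, with 47.5% above 0. The log2 fold changes of the members in the 2 tissues had a Pearson correlation of 0.13 over 88 genes, and 0.30 over the 71 with a mean of at least 20 in both.

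The members' levels were ordered differently in the 2 tables. The tables were normalized separately, so only the order and spread within each is described. In the authors' deposited bone marrow table, 80 of 88 members had a mean of at least 1000, and in that for spleen 32. Over all 88 members the means ran from 7.26 to 23998 in bone marrow, with a median of 6782, and from 1.41 to 13920 in spleen, with a median of 280, by the authors' deposited tables. Across the members, the Pearson correlation of the log10 mean between the tables was 0.45, beside 0.70 over the 9999 genes with a mean of at least 20 in both. Added up, the members made 6.37% of all means of the bone marrow table and 3.69% of those of the spleen table.

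**Figure D2:**
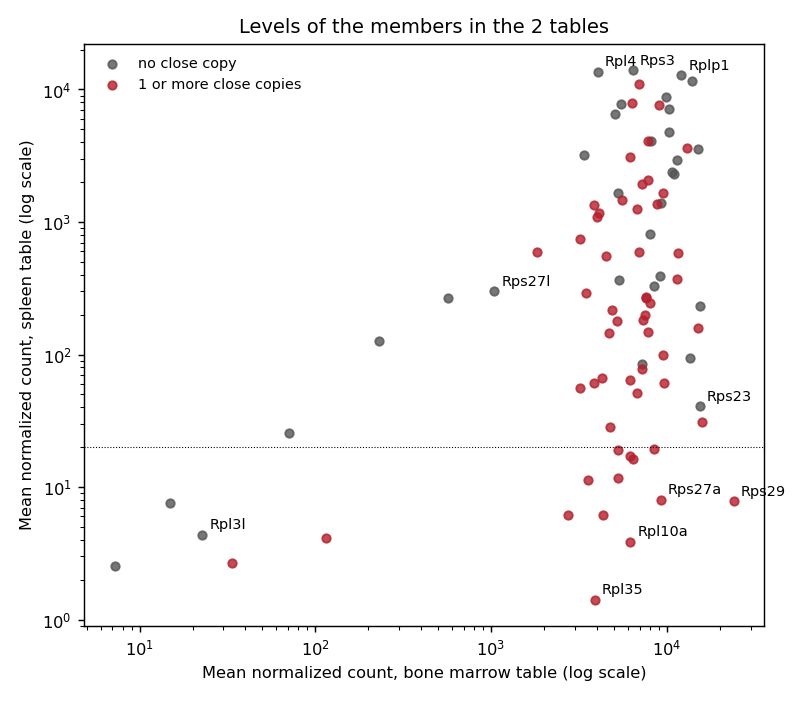
Mean normalized count of each member in the bone marrow table (x axis, log scale) and in the spleen table (y axis, log scale), with the 56 members that have a close copy in red and the other 32 in grey; the dotted line marks 20. The 80 members with bone marrow means of at least 1000 lie between 1.41 and 13920 in spleen, and all 12 of them under the dotted line are red.

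There were 12 members with a mean of at least 1000 in bone marrow and under 20 in spleen, and all 12 had a close copy, as did 54 of the 80 members with a mean of at least 1000 in bone marrow. The group was picked for its levels, so this is a description. Among them are Rps29 and Rpl35, which the naming rule gives, and Rps27a, Rpl5, Rpl10a, Rpl11, Rpl24, Rpl27, Rpl28, Rpl36 and Rpl36a, which were chosen after their values were seen. Rpl5 and Rpl11 bind MDM2 together with the 5S RNA, and Rps27a is made as a fusion with ubiquitin. For 9 of the 12, the summed mean of the close copies was above the member's own mean in spleen, and for 0 of 12 in bone marrow. Of the 81 copies listed in bone marrow, 9 had exactly the mean, log2 fold change and error of another copy. Of the 104 listed in spleen, 0 did. Sums over copies in bone marrow can thus hold the same tags more than once, and the sums may not be alike between the tissues.

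The pair shown above makes this concrete. Rps29, the member with the highest mean in bone marrow (23998), had a mean of 7.80 in spleen, and its identical copy Gm14303 had 105 in bone marrow and 286 in spleen, per the authors' deposited tables. The gene ranked above the copy in bone marrow and below it in spleen. Rpl11 had 8439 and 19.5, where the pseudogene Gm10288 had 73.5 and 2756 in the authors' deposited tables for bone marrow and spleen. Rpl5 had 6429 and 16.4, and Gm15500, identical over all 891 coding bases, 2455 and 870 in the authors' deposited tables. Rpl10a had 6207 and 3.86, and Rpl10a-ps1 161 and 498 in the authors' deposited tables. Rpl27, by contrast, had 5294 and 11.7, and its listed close copies together had 9.998 in the authors' deposited spleen table. Its copies Gm11518 and Rpl27-ps3, each identical over 208 bases, were not listed in spleen and add nothing to that sum. The same holds for Gm8430, a copy of Rps27a, and Rpl28-ps1, a copy of Rpl28. Low levels in spleen were therefore not always set beside a higher listed copy, and unlisted copies could not be compared.

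**Figure D3:**
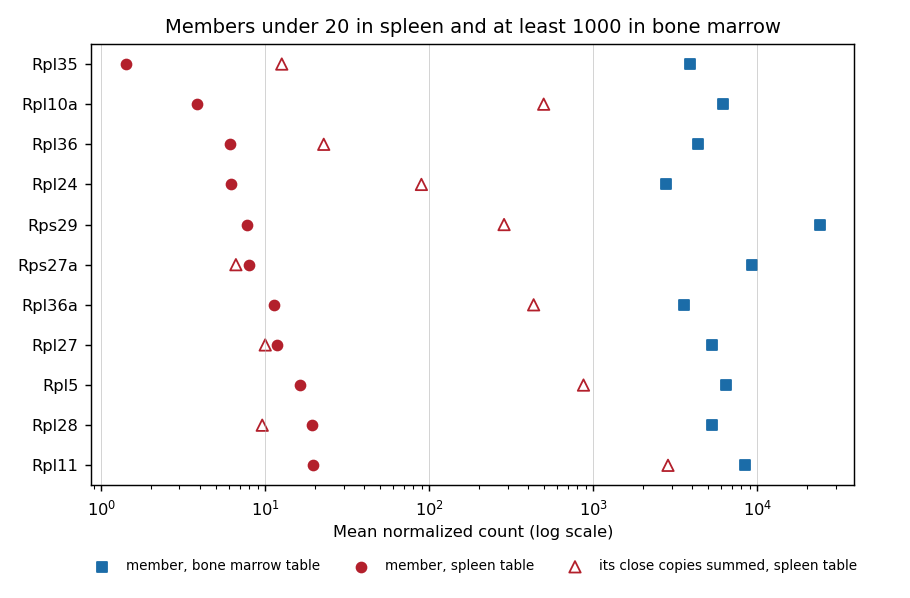
Mean normalized count (log scale) of 11 of the members with a mean under 20 in spleen and at least 1000 in bone marrow: blue squares are the member in the bone marrow table, red dots the member in the spleen table and open triangles the sum of its close copies in the spleen table. The triangle lies to the right of the dot for 8 of the 11 and to the left for Rps27a, Rpl27 and Rpl28. Rps27a, Rpl27 and Rpl28 each have a close copy that is not listed in spleen and adds nothing to the sum.

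Over all members, the median mean in spleen was 181 for the 56 with a close copy and 1525 for the 32 without, and in bone marrow 6391 and 8091 in the authors' deposited tables. The number of close copies and the mean had a Spearman correlation of -0.30 in spleen and -0.11 in bone marrow across the 88 members. The Pearson correlation with the log10 mean was -0.15 in spleen and 0.13 in bone marrow, so in bone marrow the sign differed between the measures. A copy was listed above its member for 25 of the 56 members in spleen and for 5 in bone marrow. Of the 168 copies, 104 were listed in spleen and 81 in bone marrow. None of the listed copies had a DESeq2 adjusted p under 0.05 in either of the authors' deposited tables. Without adjustment 1 in spleen and 4 in bone marrow, all higher, had p under 0.05, where 1.17% and 4.19% of all genes were higher. The copy in spleen was the member Rps27, and those in bone marrow include the member Rps27rt. The part of the copies in the fold changes of the members was not tested. Levels also varied among members without a close copy. Rps23, chosen after its values were seen, is one of them and had means of 15371 in bone marrow and 40.9 in spleen, per the authors' deposited tables. Copies under the identity or length set for a close copy were not counted, and the part of copies in the levels was not tested.

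Low spleen levels beside high bone marrow levels were also seen outside the members, in genes that every cell uses and that were chosen after their values were seen. Ppia had 10758 and 5.80 and Gapdh 1774 and 5.91 in the authors' deposited tables for bone marrow and spleen. Actb, by contrast, had 154919 and 49395 in the authors' deposited tables. Close copies were searched for the members only, and not for these genes. Of the subunit proteins with other names, Fau had 10415 and 7.10, while Rack1 had 7201 and 13014 in the authors' deposited tables. Rack1, a scaffold on the small subunit, was at 0.13 ± 0.0710 in bone marrow and 0.15 ± 0.0858 in spleen, per the authors' deposited tables.

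Genes of the same program were read beside the members. No translation factor with a TOP message was called by DESeq2 in the authors' deposited tables. Before adjustment, 3 in bone marrow (15.8%) and 2 in spleen (10.5%), all higher, had p under 0.05. Of all genes, 4.19% and 1.17% were higher. Of the 19 listed, 15 lay above 0 in bone marrow with a median of 0.02, and 17 in spleen (median 0.10) in the authors' deposited tables. Btf3, part of the complex that meets the nascent chain, was at 0.24 ± 0.0845 (adjusted p = 0.216 by DESeq2) and Pabpc1, the poly(A) binding protein, at 0.21 ± 0.0793 in the authors' deposited bone marrow table. Eif3e and Npm1 were at 0.15 ± 0.0710 and 0.13 ± 0.0667 in the authors' deposited spleen table.

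Ribosome biogenesis genes make and process ribosomal RNA. Of 41 genes, 36 lay above 0 with a median of 0.12 in the authors' deposited bone marrow table, and 24 with a median of 0.01 in that for spleen. None had a DESeq2 adjusted p under 0.05 in either of the authors' deposited tables. Ncl, which encodes nucleolin, was at 0.25 ± 0.0835 (adjusted p = 0.191 by DESeq2) and Ubtf, a factor of RNA polymerase I, at 0.25 ± 0.0919 in the authors' deposited bone marrow table. In spleen Bysl was at -0.34 ± 0.142 and Nob1 at 0.23 ± 0.131 in the authors' deposited table. Before adjustment, 3 were higher in bone marrow (7.32%) and 1 was lower in spleen (2.44%) at p under 0.05, against 4.19% and 1.85% of all genes. The difference between these lists and the members was not tested.

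The mitochondrial ribosomal proteins, which build a separate ribosome, had a median of -0.00 in bone marrow with 39 of 78 above 0, and 0.03 in spleen with 45 of 78 in the authors' deposited tables. Mrps28 (0.72 ± 0.346) and Mrpl32 (0.25 ± 0.137) had the smallest p in bone marrow, and Mrps16 (0.24 ± 0.121) and Mrps22 (-0.35 ± 0.181) in spleen, per the authors' deposited tables. Of 14 regulators in the mTORC1 and Myc list, 5 lay above 0 in bone marrow and 7 in spleen. Myc itself was at 0.49 ± 0.214 (adjusted p = 0.414 by DESeq2) in bone marrow and 0.36 ± 0.159 in spleen, per the authors' deposited tables. No gene of these 2 lists had a DESeq2 adjusted p under 0.05 in the authors' deposited tables. Before adjustment, 1 gene of each list in each tissue was higher at p under 0.05. This is 1.28% of the mitochondrial list and 7.14% of the regulators, against 4.19% of all genes in bone marrow and 1.17% in spleen.

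**Figure D4:**
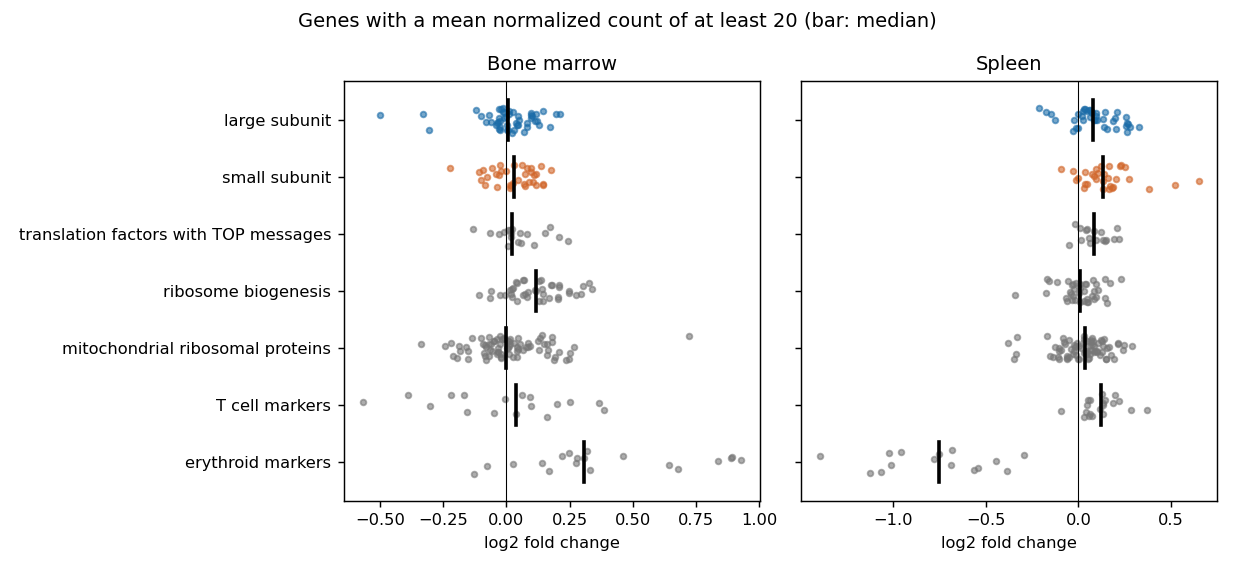
Log2 fold change of each gene with a mean of at least 20, in bone marrow (left) and spleen (right), for both ribosomal subunits and 5 other lists; each point is a gene and the black bar the median. Erythroid markers lie mostly to the right of 0 in bone marrow and all to the left in spleen, while the medians of the ribosomal subunits stay between 0.01 and 0.13.

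Markers of cell types were read beside these values, and their part in them was not tested. In spleen none of them was called by DESeq2 in the authors' deposited table, and before adjustment 3 markers were higher and 6 lower at p under 0.05. Of all spleen genes, 1.17% were higher and 1.85% lower at that threshold. Erythroid markers, which mark red cell precursors, had a median of 0.31 in bone marrow, with 17 of 19 above 0, and -0.78 in spleen, with 0 of 19 above 0 in the authors' deposited tables. Of them Hbb-bt rose in bone marrow (0.84 ± 0.223, adjusted p = 0.0370 by DESeq2) in the authors' deposited table. Neutrophil markers had medians of -0.08 and -0.39, with 2 of 18 above 0 in each of the authors' deposited tables. Monocyte and macrophage markers had a median of -0.30 with 2 of 12 above 0 in bone marrow, where 2 fell at a DESeq2 adjusted p under 0.05, and -0.07 with 5 of 12 in spleen, per the authors' deposited tables. T cell markers had 19 of 20 above 0 in spleen (median 0.12), and 11 of 20 in bone marrow with 0.03 in the authors' deposited tables. B cell markers had 8 of 14 above 0 in spleen and 9 of 14 in bone marrow, with medians of 0.01 and 0.05 in the authors' deposited tables. Progenitor markers had 8 of 12 above 0 in bone marrow, with a median of 0.20, and 4 of 12 in spleen, with -0.05 in the authors' deposited tables. Flt3, a receptor of early progenitors, rose in bone marrow (0.72 ± 0.153, adjusted p = 0.00177 by DESeq2) in the authors' deposited table. Immediate early genes, which respond within minutes to signals, had 18 of 18 above 0 in spleen (median 0.35), and 9 of 17 in bone marrow with 0.04 in the authors' deposited tables. In spleen 12 of the 18 (66.7%) were higher at an unadjusted p under 0.05, against 1.17% of all genes. Fos rose there (1.09 ± 0.158, adjusted p = 8.30e-09 by DESeq2) in the authors' deposited table. The part of this shift in the members' values was not tested.

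The 7 members on chromosome 9 were read apart, since the 2 targeted genes lie there. Their median was 0.08 in bone marrow, with 5 of 7 above 0, and 0.20 in spleen, with 6 of 7 above 0 in the authors' deposited tables. Rps27rt lies 5.92 Mb from Trex1, Rpsa 11.1 Mb and Rpl14 11.5 Mb, and the other members on the chromosome lie at least 42.1 Mb from it. Rpl14, chosen after its values were seen, was at 0.11 ± 0.0846 in bone marrow and 0.20 ± 0.101 in spleen, per the authors' deposited tables. All 3 members nearest to Trex1 thus lay above 0 in both tissues, none with a DESeq2 adjusted p under 0.05 in the authors' deposited tables. Rps27l lies nearer to Cgas than to Trex1 and was below 0 in both tissues. It was at -0.09 ± 0.102 in bone marrow and -0.03 ± 0.108 in spleen, per the authors' deposited tables.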

How the data were processed

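Total RNA from bone marrow and spleen cell suspensions was made into QuantSeq forward 3' libraries, per the labels' protocols. Tools named in the submitters' processing notes were STAR 2.6.1, bcl2fastq 1.8.4, DESeq2 and Partek, with the build mm10. How tags were counted and on which strand, with which annotation and gene filter, was not given in the sources used here, nor the DESeq2 version. Per the file headers, each table holds the authors' DESeq2 comparison of the 2 groups of a tissue. The mean normalized count is a signal that the authors averaged over the libraries after division by size factors. The log2 fold change, its error, the Wald score and the p-values (Benjamini-Hochberg over the table) were used as deposited by the authors, after recomputation as a check. No values per library were used, so depth is unknown and no own count fit was made.

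Members and lists were chosen with earlier results of these data known. The close-copy criterion and the start motif were chosen after seeing the data. The genes named are, per tissue and subunit, the 4 smallest unadjusted p, the highest and lowest log2 fold change at a mean of at least 20 and the highest and lowest mean. The stalk genes, the paralogs with their parents and Rpsa are also named, and the 2 genes of smallest p of each other list. List genes are given only where a result turns on them. A few genes that enter the counts are not reported by name here. The difference between tissues used a two-sided normal p with Benjamini-Hochberg adjustment at 0.05, and was tested on simulated data. Intervals are normal 95% intervals. Close copies were found with blastn 2.17.0 among GENCODE M21 transcripts (GRCm38), and coordinates are counted from 1. Calculations used scipy 1.17.1, statsmodels 0.14.6, numpy 2.4.6 and pandas 2.3.3 under Python 3.11.15, and matplotlib 3.10.9 drew the figures. Alternatives changed the filter on means, the members kept, the threshold, the centring and the summary.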

Additional observations from a re-analysis of the deposited data

How the results depend on the processing

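In neither tissue was a member called at an adjusted p of 0.1, or at 0.05 after adjustment over genes with a mean of at least 20. With the -ps symbols included, the count at 0.05 stayed 0. The difference between tissues also gave 0 members with centring, and with a mean of at least 20 in both. Alternatives that only drop members keep the deposited adjusted p, so their count of 0 was fixed in advance. The number of members at an unadjusted p under 0.05 in bone marrow was 7 of 88. It was 3 of 79 without the paralogs and binding protein and 2 of 32 without the members that have a close copy. With the -ps symbols included it was 11. Of all genes there, 4.19% were higher and 4.65% lower. In spleen it was 10 of 88 (11.4%), all higher. It was 3 of 32 (9.38%) without the members that have a close copy and 4 of 32 among members with a mean of at least 1000. Of all genes there, 1.17% were higher and 1.85% lower, and of those with a mean of at least 20, 2.02% and 1.58%. The share of all genes with a mean of at least 1000 was not computed. The share of members above 0 in spleen was 72.7%, and was 81.7% at a mean of at least 20, 84.4% without the members that have a close copy and 87.5% at a mean of at least 1000. The last 2 alternatives (close copies, mean of at least 1000) were chosen after seeing the data. The smaller counts come with fewer members tested. No paired analysis was possible because the deposited tables hold comparisons and no values per library, and for the same reason no library could be left out. The medians of both tissues moved by less than the members' spread, and the difference between the subunits in spleen ran from -0.03 to 0.07.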
